A study of Mus musculus with 12 samples.

Results

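Fatty acid oxidation breaks fatty acids down in rounds that each shorten the chain and release acetyl-CoA, and the cells of the proximal tubule, the first and most transport-active stretch of the kidney tubule, draw much of their energy from it. Fatty acids are taken up and joined to coenzyme A, carried into the mitochondrion as carnitine esters, and then passed through a dehydrogenation, a hydration, a second dehydrogenation and a thiolytic cleavage. Very long, branched and some other chains are first shortened by a parallel set of enzymes in the peroxisome. The 37 genes described here encode these proteins: 4 for uptake and activation, 5 for the carnitine steps, 7 acyl-CoA dehydrogenases, 7 enzymes of the later mitochondrial steps, 5 auxiliary enzymes for unsaturated chains, 3 electron transfer proteins and 6 enzymes of the peroxisomal core. They were found by gene symbol in the count table, all 37 were present among its 39171 genes, and all 37 passed the filter on low counts that left 15589 genes for testing.

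RNA was sequenced from whole kidneys of male mice up to 3 months old, 4 in each of 3 groups, each library being labelled as 1 mouse. Wild-type mice were compared with mice carrying the M743T change in both copies of GNE, the gene for the enzyme that starts sialic acid synthesis. Both knock-in groups carried the same genotype, GNE M743T/M743T, and differed in phenotype as labelled, healthy or sick. The labels give no strain and no cause of the sickness, and a count table does not show which allele was read. Markers of the kidney's own cells were present in all groups: the summed level of 19 proximal tubule markers ran from 24660.2 to 29242 CPM (a gene's share of all counts, scaled to the same total in each library) in wild-type kidneys and the 6 podocyte markers summed to between 280.0 and 449 CPM.

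Library totals ran from 10605546 to 22633684 counts, and all levels below are CPM scaled by TMM. This factor sets aside the genes with the largest changes in each direction and those with the most extreme levels. The TMM factors lay between 0.804 and 0.933 in the 8 libraries that were not from sick mice and between 1.23 and 1.39 in the 4 sick ones. The direction of some small changes therefore rests on the scaling: with library totals alone, the median change of all genes from wild-type to sick moved from 0.02 to 0.61 on the log2 scale. Wild-type mouse 2 stood apart from the other 3 on the second principal component, and 4 of 97 genes above 1000 CPM in the other libraries not from sick mice were listed at 0 in it. Results that rest on this mouse are given with and without it. In a whole kidney, fewer cells of a type and less RNA per cell cannot be told apart.

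Most of these transcripts were lower in the sick knock-in kidneys. Against wild-type, 32 of the 37 genes fell, none rose and 5 did not pass the test (edgeR's quasi-likelihood test, Benjamini-Hochberg adjusted p below 0.05 over all genes tested). Of all genes tested, 25% were called lower and 25.9% higher in this comparison. The median change of the 37 was -1.13 on the log2 scale, against 0.02 for all genes, and 23 of the 32 fell by a factor of 2 or more and 6 by a factor of 4 or more. In 28 genes all 4 sick kidneys lay below all 4 wild-type kidneys, which held in that direction for 20.6% of all genes. Without wild-type mouse 2 the number of genes that fell was 30, and without sick mouse 3 it was 34. With library totals alone 23 of the 37 were still called lower, Acsl1 was called higher, and the median of the 37 was -0.55, while over all genes 8420 were then called higher and 1605 lower in place of 4032 and 3901. By step, that scaling called lower 3 of 4 genes of uptake and activation, 2 of 5 of the carnitine steps, 6 of 7 dehydrogenases, 4 of 7 of the later steps, 2 of 5 auxiliary enzymes, 3 of 3 electron transfer proteins and 3 of 6 of the peroxisomal core.

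**Figure D1:**
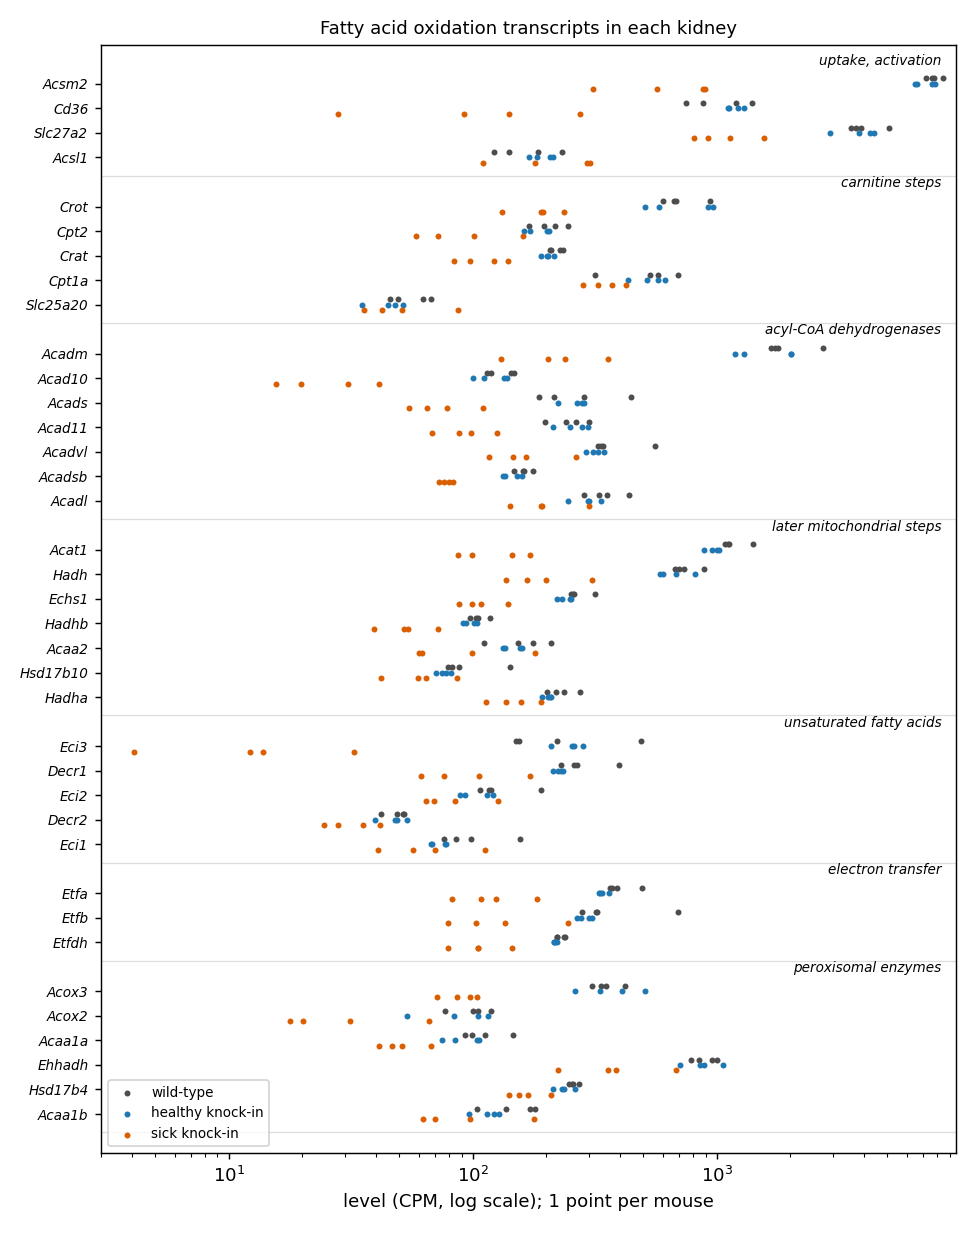
Level of each gene in each of the 12 kidneys (CPM after TMM scaling, log axis, 1 point per mouse), grouped by step and ordered within a step by the change from wild-type to sick; grey is wild-type, blue healthy knock-in and orange sick knock-in. The sick kidneys lie to the left of both other groups for most genes, from 4.09 to 32.6 CPM for Eci3 against 149.7 to 489.7 CPM in wild-type. They overlap wild-type for Acsl1, Cpt1a, Slc25a20, Acadl, Hsd17b10, Acaa2, Eci1, Eci2 and Acaa1b, and only healthy knock-in for Decr2 and Acox2.

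Taken as a share of all counts in a library, the 37 genes made up 2.16% ± 0.120 (SD, n = 4) in wild-type, 1.99% ± 0.0902 (SD, n = 4) in healthy knock-in and 0.799% ± 0.199 (SD, n = 4) in sick knock-in kidneys. The sick values were 0.566, 0.770, 1.05 and 0.812% in mice 1 to 4, all below the lowest value of the other 8 kidneys, 1.88%. Acsm2 alone carried a large part of this share. Without it the shares were 1.49%, 1.37% and 0.714% in the 3 groups.

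The sick mice differed among themselves in a similar order in most of the genes. Sick mouse 3 had the highest level of the 4 in 32 of the 37 genes and sick mouse 1 the lowest in 30. Relative to the wild-type mean, the median over the 37 genes was -1.75, -1.42, -0.67 and -1.24 on the log2 scale in sick mice 1 to 4. The summed proximal tubule markers were 3225.4, 4022, 5918 and 5149 CPM in the same 4 mice, so both measures placed the mice in the same order. Sick mouse 3 also had the smallest library of the 12. All 19 of those markers fell against wild-type, with a median of -2.69 on the log2 scale, and the 10 markers of injured tubule rose from a sum of 610.0 to 999 CPM in wild-type to between 9379 and 15597 CPM in sick kidneys. Macrophage markers summed to between 859 and 1773 CPM in sick kidneys and to between 128 and 249.8 CPM in wild-type, with all 9 in the table higher. Fibroblast markers summed to between 3413 and 7039.9 CPM in sick kidneys and to between 503 and 669 CPM in wild-type, with all 10 higher. The endothelial markers ran from 571 to 663 CPM in sick and from 641 to 778 CPM in wild-type kidneys, where 1 of 9 was lower and 8 did not pass, with a median of -0.21. With library totals alone the endothelial median turned to 0.38, with 3 markers higher and none lower. Over all genes that scaling gave 8420 of 15589 higher and a median of 0.61, against 0.02 with TMM. The part of these marker levels in the results on fatty acid oxidation was not tested.

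Uptake and activation showed the largest median change of any step, -2.42 on the log2 scale, with 3 of 4 genes lower. Acsm2, a medium-chain acyl-CoA synthetase of the proximal tubule, was read at 7200.2, 7624, 7787 and 8450.0 CPM in wild-type mice 1 to 4, at 7609.9, 6588, 6469 and 7795 CPM in healthy knock-in mice, and at 309, 569, 878 and 898 CPM in sick mice. Every sick kidney lay far below the other 8, and the gene was 11.7-fold lower than in wild-type (log2 change -3.55 ± 0.32 SE, n = 4 and 4, edgeR adjusted p = 4.99e-06). It lies at chromosome 7, bases 119554340 to 119600690 on the plus strand of GRCm38.

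Cd36, a membrane protein that takes up long-chain fatty acids, stood at 751, 1200.5, 878 and 1387 CPM in wild-type, at 1216, 1121, 1113 and 1291 CPM in healthy knock-in and at 28.1, 92.5, 141 and 276 CPM in sick mice. The sick kidneys lay below all others, but they spread over a wide range, lowest in mouse 1 and highest in mouse 4. The change was -2.97 ± 0.51 (SE) on the log2 scale (edgeR adjusted p = 0.0004), and -3.60 without sick mouse 4. Fat cells also carry Cd36, and the 9 adipose markers summed to 21.4, 309, 252 and 1202 CPM in sick mice 1 to 4 against 6.43 to 51.4 CPM in wild-type, all 6 that were tested being higher. Sick mice 1 and 4 were thus lowest and highest in both, and the part of fat tissue in the Cd36 level was not tested.

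Slc27a2, a fatty acid transporter that also activates very long chains, also fell in this step, by 1.87 on the log2 scale. Acsl1, which activates long chains, did not pass: it lay between 122 and 233 CPM in wild-type and between 109.8 and 301 CPM in sick mice, with a log2 change of 0.38 ± 0.29 (SE, edgeR adjusted p = 0.292) that became 0.96 (adjusted p = 0.0121) with library totals alone. Among the 37 it was the only gene with a positive estimate in this comparison.

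The carnitine steps were lower in 4 of 5 genes, with a median of -0.99 on the log2 scale. Cpt1a makes the acylcarnitine on the outer mitochondrial membrane and is the step at which entry is controlled. It was read at 575, 316, 691 and 535 CPM in wild-type, at 576, 434, 515 and 612 CPM in healthy knock-in and at 326, 426, 373 and 282 CPM in sick mice. The sick kidneys overlapped wild-type only through wild-type mouse 2, and lay wholly below the healthy knock-in kidneys. Its log2 change from wild-type was -0.59 ± 0.22 (SE, edgeR adjusted p = 0.0416), among the smallest of the genes that fell. This call was lost when any 1 of 8 libraries was left out (wild-type mouse 1, 3 or 4, healthy mouse 1 or 3, sick mouse 1, 3 or 4), with adjusted p from 0.0509 to 0.128, it became -0.78 (adjusted p = 0.0028) without wild-type mouse 2, and the estimate was 0.00 with library totals alone.

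Crot, the carnitine acyltransferase of the peroxisome, was the most changed of the carnitine genes. It stood at 668, 939.6, 679 and 603 CPM in wild-type, at 509, 920.2, 969 and 577 CPM in healthy knock-in and at 132, 189.7, 237 and 195 CPM in sick mice. No sick kidney reached the lowest of the others, and the change was -1.94 ± 0.25 (SE) on the log2 scale (edgeR adjusted p = 5.43e-05). Cpt2, which turns acylcarnitine back to acyl-CoA on the inner membrane, stood at 196, 245, 216 and 170.2 CPM in wild-type, 162, 172, 206 and 201 CPM in healthy knock-in and 58.5, 71.9, 161 and 101 CPM in sick mice. Sick mouse 3 lay just below the lowest healthy knock-in kidney, and the sick mice did not overlap either group. The Cpt2 change was -1.07 ± 0.26 (SE, edgeR adjusted p = 0.00418), and -0.51 (adjusted p = 0.0773) with library totals alone. Crat, which forms acetylcarnitine, fell by 0.99 on the log2 scale. Slc25a20, the carrier that swaps acylcarnitine for carnitine across the inner membrane, did not pass, with a log2 change of -0.06 ± 0.25 (SE, edgeR adjusted p = 0.866). It ranged from 45.6 to 67.7 CPM in wild-type and from 36.0 to 87.3 CPM in sick mice, and its estimate was 0.52 with library totals alone.

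All 7 acyl-CoA dehydrogenases, which open each round of oxidation and differ by the chain they accept, fell in the sick kidneys, with a median of -1.40. Acadm, the medium-chain enzyme, stood at 1724, 2718, 1773 and 1667 CPM in wild-type, at 1190.0, 2014, 2008 and 1290.0 CPM in healthy knock-in and at 131, 202, 358 and 238 CPM in sick mice. The sick kidneys were far below both other groups, 8.48-fold lower than wild-type (log2 change -3.08 ± 0.32 SE, edgeR adjusted p = 1.24e-05). Within the healthy knock-in group, mice 1 and 4 were lower than mice 2 and 3 in both Acadm and Crot. The summed distal and collecting duct markers split the same mice, at 2763 and 2401 CPM in mice 1 and 4 and at 5082 and 5878 CPM in mice 2 and 3, and the part of this in the 2 genes was not tested.

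The sequence just upstream of Acadm (GRCm38.p6, chr3:153944644-153944893, minus strand, RefSeq) is shown because Acadm is a textbook target of the fatty acid receptor PPAR-alpha, which binds DNA at repeats of the letters AGGTCA; the capitals mark the 1 match in this window, which reads TGACCT on the printed strand.
Acadm upstream: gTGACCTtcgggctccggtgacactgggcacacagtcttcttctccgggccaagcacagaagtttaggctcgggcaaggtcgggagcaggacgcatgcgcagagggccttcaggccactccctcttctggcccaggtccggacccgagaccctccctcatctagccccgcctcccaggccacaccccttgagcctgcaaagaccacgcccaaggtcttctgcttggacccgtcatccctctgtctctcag
Windows of 250 bases upstream of the gene start were at hand for 32 of the 37 genes, 35 windows in all, with the starts as RefSeq gives them. GENCODE places some starts elsewhere: 11 of the 35 windows lie wholly inside the GENCODE gene, those of Slc27a2, Cd36 and Cpt1a among them. Exons of any GENCODE gene, on either strand, overlap 22 of the 35. AGGTCA on either strand occurred in 6 of the 35, those of Acadm, Acadvl, Cd36, Cpt1a, Echs1 and Slc27a2, against 14% of the 32851 windows of all genes. The longer forms, DR1 (AGGTCA repeated after a gap of 1 base) and TCAAGGTCA (an extended single site), both of which contain AGGTCA, occurred in none of the 35 and in 0.0335% and 0.387% of all windows. These letters are a description of the windows and say nothing of binding.

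Acad10, a less studied member of the family, was read at 114, 143, 118 and 147 CPM in wild-type, at 134, 100.3, 138 and 112 CPM in healthy knock-in and at 19.8, 15.6, 41.3 and 30.7 CPM in sick mice. All sick values lay below all others, and the change was -2.29 ± 0.26 (SE) on the log2 scale (edgeR adjusted p = 2.1e-05). Of its 50-base stretches 17.3% also occur in other genes, Acad12 among them, so part of its count may have been assigned differently by the authors' counting. The other 5 dehydrogenases were Acads, for short chains, at -1.87, Acad11, found in the peroxisome, at -1.40, Acadvl, for very long chains, at -1.17, Acadsb, for short branched chains, at -1.05, and Acadl, for long chains, at -0.77. Acadsb had the narrowest spread of them, from 73.0 to 83.2 CPM in sick and from 148 to 176 CPM in wild-type mice. Acadl was called lower although 1 sick kidney (299 CPM) lay above the lowest wild-type kidney (285 CPM), and with library totals alone its change was -0.19 (adjusted p = 0.398). Acadvl overlaps Dvl2 on the opposite strand over 1151 exon bases, and the sources used here do not say whether strand was kept.

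Among the later mitochondrial enzymes, 6 of 7 genes fell, with a median of -0.96. Acat1, the thiolase that cleaves and forms acetoacetyl-CoA and so joins oxidation to ketone bodies, stood at 1078, 1409.6, 1106 and 1117 CPM in wild-type, at 885, 1021, 1002 and 957 CPM in healthy knock-in and at 86.9, 99.6, 172 and 144 CPM in sick mice. The 3 groups did not overlap at all, since every healthy knock-in kidney also lay below every wild-type kidney. From wild-type to sick the gene was 9.38-fold lower (log2 change -3.23 ± 0.22 SE, edgeR adjusted p = 1.39e-06). From wild-type to healthy knock-in the change was -0.29 ± 0.21 (SE) and did not pass (edgeR adjusted p = 0.912). Acat1 had the smallest adjusted p of the 37 genes.

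Hadh, which oxidises the 3-hydroxy group of medium and short chains, was at 671, 884, 701 and 734 CPM in wild-type, at 679, 584, 602 and 817 CPM in healthy knock-in and at 137, 167, 309 and 200.1 CPM in sick mice. Again no sick kidney reached the others, and the change was -1.88 ± 0.23 (SE) on the log2 scale (edgeR adjusted p = 3.79e-05). Echs1, the short-chain hydratase, fell by 1.32 on the log2 scale. Acaa2, the mitochondrial 3-ketoacyl-CoA thiolase, did not pass at -0.70 ± 0.31 (SE, edgeR adjusted p = 0.0772): sick mouse 3 stood at 179 CPM, inside the wild-type range of 111 to 209 CPM, and without this mouse the change was -1.14 (adjusted p = 0.0015). Without wild-type mouse 4 the Acaa2 change was -0.85 (edgeR adjusted p = 0.0448), and without wild-type mouse 2 it was -0.56 (edgeR adjusted p = 0.170). Hsd17b10, a dehydrogenase of short and branched chains, fell by 0.64, a call that was lost without wild-type mouse 2 (-0.41) and without sick mouse 1 (-0.49), 2 (-0.62) or 4 (-0.65).

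Hadha and Hadhb encode the alpha and beta subunits of the trifunctional protein, which carries out the last 3 steps on long chains, and their GENCODE gene models lie 85 bases apart on opposite strands of chromosome 5. Hadha was at 202 to 274 CPM in wild-type and 113 to 191 CPM in sick mice, and Hadhb at 97.1 to 117 CPM and 39.4 to 72.0 CPM. Neither overlapped, and the changes were -0.64 for Hadha and -0.96 for Hadhb, both smaller than those of Acat1, Hadh and Echs1 in the same pathway. With library totals alone the Hadha change was -0.06 (adjusted p = 0.747) and that of Hadhb -0.38 (adjusted p = 0.0287). The bases between the 2 gene models (GRCm38.p6, chr5:30155163-30155247, plus strand, read from the RefSeq window of Hadhb) are shown because the genes diverge from this stretch; in RefSeq the starts are 272 bases apart and enclose it; the capitals mark GGGCGG, a motif of the Sp1 family, which occurs 2 times.
Hadha-Hadhb gap: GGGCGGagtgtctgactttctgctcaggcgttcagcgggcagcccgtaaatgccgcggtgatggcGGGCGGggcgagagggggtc
GGGCGG on either strand occurred in 23 of the 35 windows of these genes and in 32.7% of all windows. CCAAT occurred in 15 of the 35 and in 33.8% of all windows. TATAAA, the TATA box, occurred in 1 of the 35, a window of Acsm2, and in 12.4% of all windows. The Acsm2 window (GRCm38.p6, chr7:119554090-119554339, plus strand, RefSeq) is shown as that exception, with the TATA letters in capitals.
Acsm2 upstream: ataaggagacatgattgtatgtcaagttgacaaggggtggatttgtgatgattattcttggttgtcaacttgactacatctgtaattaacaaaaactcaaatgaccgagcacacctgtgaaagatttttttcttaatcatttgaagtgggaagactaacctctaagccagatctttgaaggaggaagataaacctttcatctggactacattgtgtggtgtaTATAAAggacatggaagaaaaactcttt
None of the 37 genes other than Acsm2 had TATAAA among the windows at hand, and a further Acsm2 window lacked it. Acsm2 had the highest CPM in wild-type kidney, while per kilobase of exon Slc27a2 led. A link between level and these letters was not tested.

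The auxiliary enzymes that rearrange double bonds of unsaturated chains gave both the largest change and several of the smallest, with 4 of 5 genes lower and a median of -0.63 (2 of 5 and -0.05 with library totals alone). Eci3, a peroxisomal enoyl-CoA isomerase, was read at 221, 489.7, 154 and 149.7 CPM in wild-type, at 261, 254, 283 and 209 CPM in healthy knock-in and at 4.09, 12.3, 32.6 and 13.8 CPM in sick mice. The lowest of the other 8 kidneys was several times higher than the highest sick one, and the gene was 16.3-fold lower than in wild-type (log2 change -4.03 ± 0.56 SE, edgeR adjusted p = 8.97e-05). Without sick mouse 3 the change was -4.66, 25.3-fold. Without wild-type mouse 2 the Eci3 change was -3.51 (edgeR adjusted p = 0.000148), and Acsm2, at -3.57, was then the most changed of the 37. Its neighbour Eci2, an isomerase of both compartments that lies beside it on chromosome 13, was at 107, 189.5, 119 and 117 CPM in wild-type, 88.8, 92.5, 115 and 121 CPM in healthy knock-in and 64.3, 84.8, 127 and 69.3 CPM in sick mice. Here the groups overlapped, with sick mouse 3 above 3 of the wild-type mice, and the change was -0.63 ± 0.23 (SE, edgeR adjusted p = 0.0401). The Eci2 call was lost without wild-type mouse 2 (-0.42), sick mouse 1 (-0.51), sick mouse 2 (-0.62) or sick mouse 4 (-0.53), and with library totals alone (-0.05, adjusted p = 0.854). The coding sequences of Eci2 and Eci3 are 89.55% identical, with 122 shared stretches of 50 bases, so reads could be split between them.

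Decr1, the mitochondrial dienoyl-CoA reductase, was at 261, 398, 269 and 229.5 CPM in wild-type, at 223, 213, 231 and 234 CPM in healthy knock-in and at 61.6, 76.0, 172 and 106 CPM in sick mice. The sick kidneys lay below all others and the change from wild-type was -1.48 ± 0.28 (SE) on the log2 scale (edgeR adjusted p = 0.000758). Its peroxisomal counterpart Decr2 fell by 0.59 and had a change of 0.00 with library totals alone. Eci1, the mitochondrial isomerase, did not pass at -0.57 ± 0.28 (SE, edgeR adjusted p = 0.106), with sick mouse 3 at 112 CPM inside the wild-type range of 76.0 to 156 CPM. Without that mouse its change was -0.90 (edgeR adjusted p = 0.00884). Without wild-type mouse 2, the top of that range, the Eci1 change was -0.32 (edgeR adjusted p = 0.320).

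The 3 proteins that pass the electrons of the dehydrogenases on to the respiratory chain all fell, with a median of -1.52. Etfa, the alpha subunit of the electron transfer flavoprotein, was at 366, 492, 372 and 390.1 CPM in wild-type, at 331, 329, 339.6 and 361 CPM in healthy knock-in and at 82.3, 109, 183 and 124 CPM in sick mice. As with Acat1 the 3 groups did not overlap, and the change to sick was -1.70 ± 0.21 (SE) on the log2 scale (edgeR adjusted p = 3.65e-05). Etfb, the beta subunit, was at 319.7, 694, 322 and 280.0 CPM in wild-type, at 267, 279, 301 and 308 CPM in healthy knock-in and at 79.4, 104, 245 and 136 CPM in sick mice. The sick kidneys stayed below the others, and wild-type mouse 2 lay far above its group. The Etfb change was -1.52 ± 0.35 (SE, edgeR adjusted p = 0.00292), and -1.13 (adjusted p = 0.0071) without wild-type mouse 2. Of its 50-base stretches 44.8% also occur in the overlapping gene model Gm45233 on the same strand, which limits how its reads could be assigned. Etfdh, which hands the electrons to ubiquinone, fell by 1.08.

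In the peroxisomal core 5 of 6 genes fell, with a median of -1.12. Acox3, an acyl-CoA oxidase of branched chains, was at 350.2, 308, 419 and 337 CPM in wild-type, at 408, 261, 331 and 506 CPM in healthy knock-in and at 71.3, 97.4, 104 and 86.5 CPM in sick mice. The sick mice formed a tight group below all others, with a change of -1.98 ± 0.21 (SE) on the log2 scale (edgeR adjusted p = 1.16e-05). Acox2, the oxidase of bile acid intermediates and branched chains, was at 119, 76.7, 105 and 100.4 CPM in wild-type, at 116, 105, 84.0 and 53.6 CPM in healthy knock-in and at 20.1, 31.3, 66.2 and 17.9 CPM in sick mice. Sick mouse 3 lay below every wild-type kidney but above healthy knock-in mouse 4, and the change from wild-type was -1.57 ± 0.37 (SE, edgeR adjusted p = 0.00368). The bifunctional enzymes of the middle steps, Ehhadh and Hsd17b4, changed by -1.12 and -0.62, and with library totals alone their changes were -0.55 (adjusted p = 0.0703) and -0.04 (adjusted p = 0.806).

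The peroxisomal thiolase is encoded by a pair of near-identical genes on chromosome 9. Acaa1a was at 99.3, 145, 112 and 93.4 CPM in wild-type, at 106, 75.0, 84.4 and 104 CPM in healthy knock-in and at 41.3, 46.7, 67.2 and 51.2 CPM in sick mice. All sick values were below all others, and it fell by 1.13 ± 0.19 (SE) on the log2 scale (edgeR adjusted p = 0.000336). Acaa1b was at 137, 180.2, 172 and 104 CPM in wild-type, at 122, 96.4, 115 and 128 CPM in healthy knock-in and at 70.2, 62.5, 178 and 97.1 CPM in sick mice. With sick mouse 3 near the top of the wild-type range, Acaa1b did not pass (log2 change -0.54 ± 0.29 SE, edgeR adjusted p = 0.135). Without that mouse it was -0.96 (edgeR adjusted p = 0.00261), and without wild-type mouse 2 it was -0.45 (edgeR adjusted p = 0.250). The difference between the 2 genes was not tested. Their coding sequences are 96.55% identical over 1275 bases, and 39.6% of the 50-base stretches of Acaa1b and 17.1% of those of Acaa1a occur in another gene, so part of their reads cannot be told apart. Coding bases 259 to 318 (counted from the first base of the start codon, GRCm38) are shown as the stretch where they differ most, with the 11 differing bases in capitals.
Acaa1a coding: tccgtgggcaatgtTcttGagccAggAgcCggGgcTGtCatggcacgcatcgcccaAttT
Acaa1b coding: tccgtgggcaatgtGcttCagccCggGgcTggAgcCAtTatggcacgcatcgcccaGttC
Only reads that cover such positions can be given to 1 gene of the pair.

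**Figure D2:**
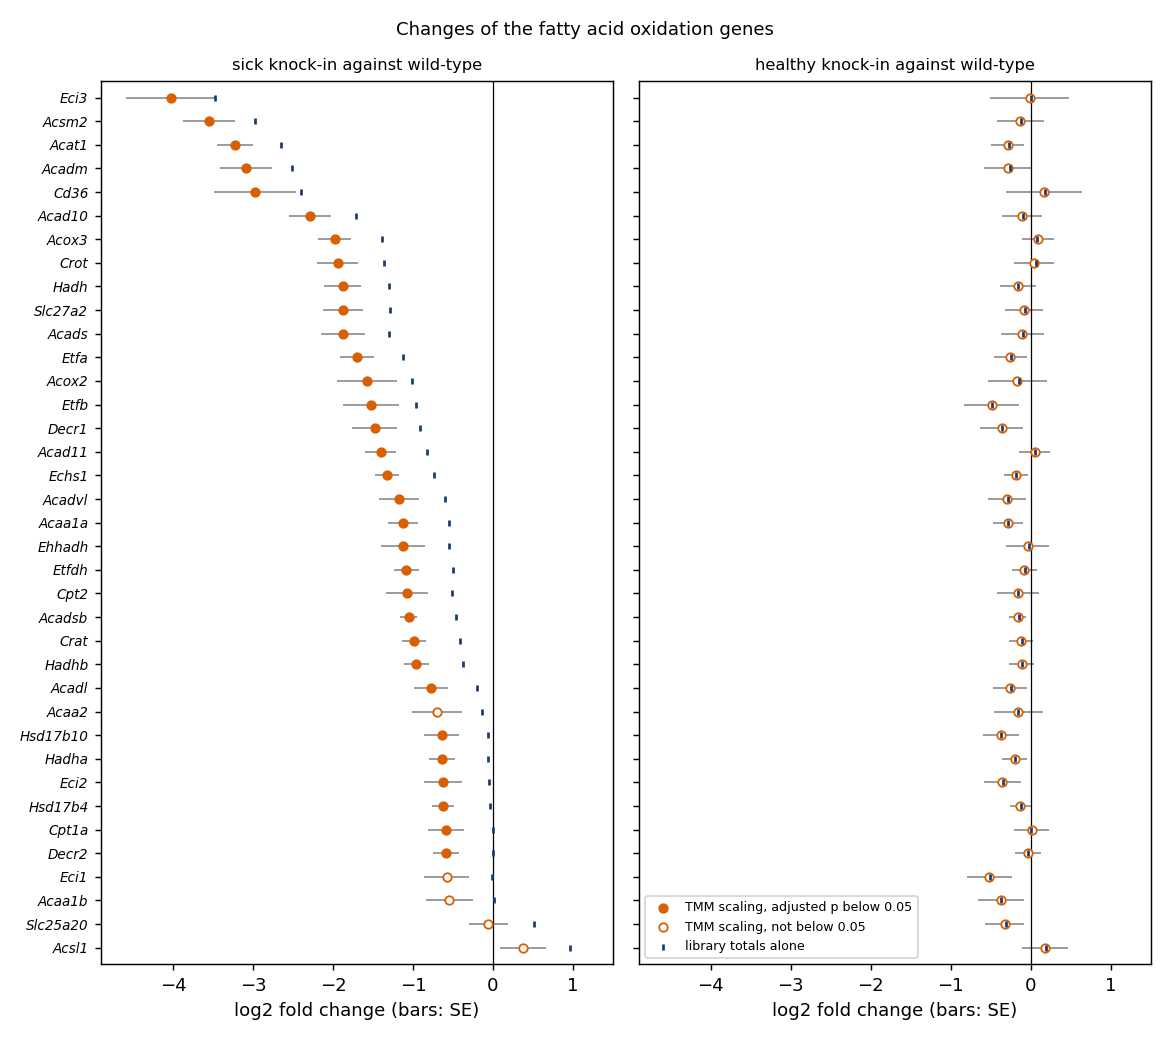
Log2 fold change of each gene with its standard error, sick knock-in against wild-type (left) and healthy knock-in against wild-type (right); filled points passed at an adjusted p below 0.05, open points did not, and the dark ticks are the changes with library totals alone. In the sick comparison 32 of 37 points are filled, from -4.03 for Eci3 to -0.59, and the ticks lie to the right of every point; on the right no point is filled and the ticks fall on the points.

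Healthy knock-in kidneys, which share the genotype of the sick ones, did not differ from wild-type in any of the 37 genes by this test. None was called, against 0.314% of all genes (0.00641% lower and 0.308% higher), and the smallest edgeR adjusted p was 0.912. At an unadjusted p below 0.05 the count was 0 of 37 with edgeR, 0 with DESeq2 and 1 with limma-voom. The changes ran from -0.52 (Eci1) to 0.18 (Acsl1) with a median of -0.16, against -0.01 for all genes. Of the 37 estimates 31 were negative, a count that was not made for all genes. Wild-type mouse 2 was the highest of its group in 22 of the 37 genes. Without it Eci1 was at -0.26, Etfb moved from -0.49 to -0.09, and Acads and Eci3 were at 0.20 and 0.53. Other genes moved the opposite way, Cpt1a from 0.01 to -0.17 and Acox2 from -0.16 to -0.27. Leaving out each mouse in turn, the median stayed between -0.18 and -0.11. Acat1 and Etfa were the 2 genes in which all healthy knock-in kidneys lay below all wild-type kidneys, a pattern that held in this direction for 1.8% of all genes. The standard errors of the 37 changes ran from 0.11 to 0.49, so changes of the size of these estimates were not detectable here with 4 mice a group. Healthy knock-in kidneys also carried transcripts of skeletal muscle: its 10 markers summed to between 224 and 365 CPM against 1.38 to 3.54 CPM in wild-type, and all 10 were called higher, Myh2 being at 0 in every wild-type library. Muscle uses fatty acids as well, and the part of this in the levels of the 37 genes was not tested.

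Within the knock-in genotype, 29 of the 37 genes were lower in sick than in healthy mice, none was higher and 8 did not pass. Of all genes tested, 21.9% were called lower and 24.5% higher. The median of the 37 was -1.0, against 0.05 for all genes, and all 4 sick kidneys lay below all 4 healthy ones in 27 genes, as in 23.2% of all genes. The 29 genes were also among the 32 that fell against wild-type, with the sick mice shared between both comparisons. The 3 that passed against wild-type and not against healthy knock-in were Acadl (-0.52, edgeR adjusted p = 0.0618), Hsd17b10 (-0.27, adjusted p = 0.333) and Eci2 (-0.28, adjusted p = 0.357). Acadl passed here without wild-type mouse 2 (-0.53, adjusted p = 0.0432) and without sick mouse 3 (-0.76, adjusted p = 0.00444), and with DESeq2, limma-voom and the replicate block. Side by side, the change to sick from wild-type and from healthy knock-in was -3.55 and -3.42 for Acsm2, -3.08 and -2.81 for Acadm, -3.23 and -2.94 for Acat1 and -4.03 and -4.02 for Eci3. Cpt1a was at -0.59 and -0.60, and the call against healthy knock-in was lost without healthy mouse 1, 3 or 4 or sick mouse 1, 3 or 4 (adjusted p from 0.0528 to 0.109). With library totals alone, 16 of the 37 were called lower and 2 higher, Acsl1 (0.77, adjusted p = 0.0354) and Slc25a20 (0.83, adjusted p = 0.00825). Of all 15589 genes tested, that scaling called 8581 higher and 1425 lower in this comparison, with a median of 0.63.

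Both compartments were lower in most of their genes, and the difference between them was not tested. Of the 21 genes placed in the mitochondrion 18 fell from wild-type to sick with a median of -1.08, and of the 10 placed in the peroxisome 9 fell with a median of -1.26. Crat and Eci2, which occur in both, fell as well. Counting those 2 as peroxisomal and Acad11 as mitochondrial gave 19 of 22 and 10 of 11, with medians of -1.13 and -1.12, so which compartment had the lower median depended on 3 assignments. Both ranges were wide, from -3.23 to -0.06 in the mitochondrion and from -4.03 to -0.54 in the peroxisome. Against healthy knock-in, 16 of 21 and 9 of 10 fell, with medians of -0.92 and -1.25. The other assignment gave 17 of 22 and 9 of 11 there, with medians of -0.96 and -0.87. With library totals alone, 9 of 21 were lower and 1 higher in the mitochondrion and 4 of 10 lower in the peroxisome. The medians were then -0.35 and -0.70, or -0.39 and -0.30 with the other assignment. Between healthy knock-in and wild-type the medians were -0.20 and -0.03 (-0.19 and -0.12 with the other assignment), with no gene called in either. The peroxisomal median of the 4 sick mice relative to the wild-type mean was -1.94, -1.39, -0.67 and -1.33, and the mitochondrial one -1.62, -1.42, -0.67 and -1.15, so mouse 3 was highest and mouse 1 lowest in both.

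**Figure D3:**
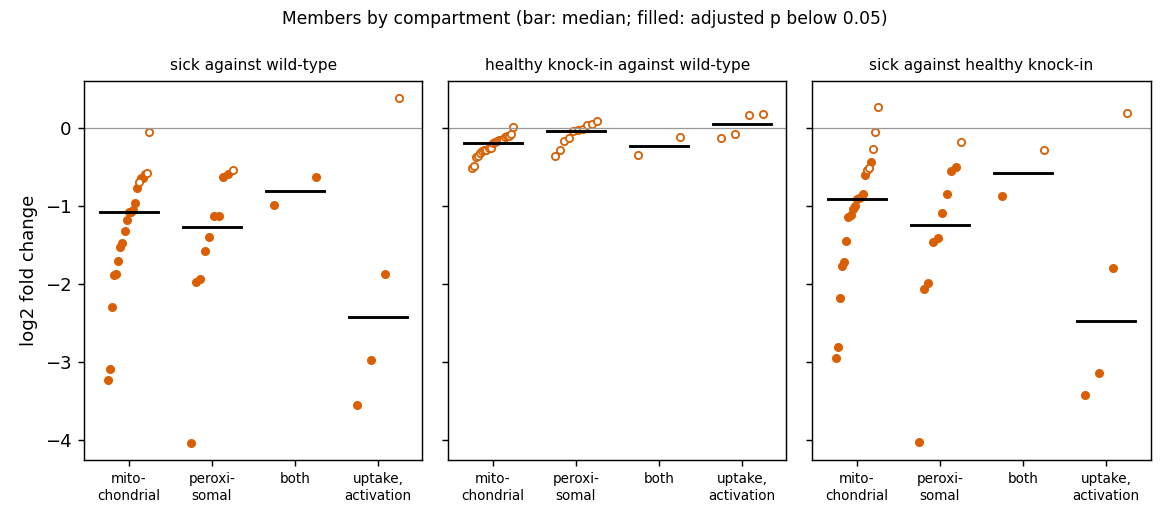
Log2 fold change of each gene by the compartment of its protein in the 3 comparisons; points are genes, filled where the adjusted p was below 0.05, and bars are medians. Mitochondrial and peroxisomal medians lie at -1.08 and -1.26 for sick against wild-type, at -0.20 and -0.03 for healthy knock-in against wild-type, and at -0.92 and -1.25 for sick against healthy knock-in. With Acad11 counted as mitochondrial and Crat and Eci2 as peroxisomal, the medians against healthy knock-in are -0.96 and -0.87.

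Levels of different genes can be set side by side once they are divided by transcript length, here all exons of a gene in the GENCODE annotation. In wild-type kidney Slc27a2 and Acsm2 led at 1079.6 and 1046 CPM per kilobase, followed by Acadm at 504, Etfb at 347, Acat1 at 313 and Ehhadh at 301. Slc25a20 was the lowest at 11.6 CPM per kilobase. The means of Acadm, Etfb and Acat1 include high values in wild-type mouse 2, for Etfb 694 CPM against 280.0 to 322 CPM in the others. Ranks without this mouse were not computed. In sick kidneys Slc27a2 was still first at 294 CPM per kilobase, Ehhadh and Etfb came next at 138 and 121, and Acadl rose from rank 10 to rank 4 of the 37 while its own level fell. Acat1 went from rank 5 to rank 19 at 33.4 CPM per kilobase, and Eci3 from rank 9 to rank 31 at 11.1. The order of neighbours is not firm, since the standard deviation over the 4 mice often exceeded the gap between them, and exons that are rarely used lengthen some genes.

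Other genes of fatty acid use were counted from lists that surround the 37. From wild-type to sick, 25.9% of the 15589 genes tested rose and 25% fell, with a median of 0.02. With library totals alone 8420 rose and 1605 fell, with a median of 0.61. These all-gene figures stand beside every list count below. Of 14 tested genes of further beta-oxidation steps and of amino acid and propionate breakdown, which uses related enzymes, 13 fell and 1 rose, with a median of -1.75. Ivd, of leucine breakdown, fell by 2.34 and Gcdh, of lysine breakdown, by 2.05 on the log2 scale. The 1 that rose was Cpt1c, a brain-type relative of Cpt1a, from 1.38 ± 0.632 to 8.34 ± 1.19 CPM (SD, n = 4; log2 change 2.57 ± 0.31 SE, edgeR adjusted p = 2.96e-05). Of 16 peroxins, which build the peroxisome, 13 fell and none rose, with a median of -0.71, and with library totals alone 5 fell and 1 rose. Of 12 genes of peroxisomal import and alpha-oxidation 8 fell and 1 rose (6 and 3 with library totals alone), among them Amacr, a racemase of branched chains, at -3.50 and Nudt19, a hydrolase of coenzyme A, at -3.0. The exception was Abcd2, an importer of very long chains, which rose from 1.10 ± 0.370 to 7.97 ± 3.74 CPM (SD, n = 4; log2 change 2.84 ± 0.38 SE, edgeR adjusted p = 6.38e-05).

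The acyl-CoA synthetases were split, with 7 of 15 lower and 6 higher. Acsm3 and Acsm1, medium-chain relatives of Acsm2, were at -4.60 and -3.44, and Acss2, which activates acetate, at -2.39, while Acsl4, which activates arachidonic acid, rose by 1.56. Without sick mouse 4 the Acsm3 change was -5.34. Of 13 thioesterases, which undo the activation, 7 fell and none rose (4 and 3 with library totals alone), Acot11 the most at -2.63. In carnitine supply 4 of 7 fell and none rose (3 and 1 with library totals alone), including Slc22a5, the carnitine importer, at -1.70 and Aldh9a1, of carnitine synthesis, at -1.95.

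All 5 ketone body genes counted fell, with a median of -1.91. Oxct1 and Bdh1, which use ketone bodies, fell by 2.74 and 2.67. Of 14 genes of fatty acid binding and storage 5 rose and 4 fell (7 and 3 with library totals alone), beside 25.9% and 25% of all genes. Without wild-type mouse 1, 3 or 4, or without sick mouse 4, the number that rose was 3. Fabp1, the liver-type binding protein, had the largest rise, 4.89, or 4.27 without sick mouse 3 and 5.58 without wild-type mouse 2, at a level of 2.89 ± 2.26 CPM (SD, n = 4) in sick kidneys. Of 11 genes of malonyl-CoA and fatty acid synthesis 4 rose and 1 fell, with a median of 0.15 (8 and 1, with a median of 0.75, with library totals alone). The number that rose was 2 without wild-type mouse 3. Scd2, a desaturase, rose by 1.64, and Mlycd, which removes malonyl-CoA, the inhibitor of Cpt1a, fell by 1.5.

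Among 17 regulators 10 fell and 2 rose, with a median of -0.89 (7 and 3 with library totals alone). Hnf4a, a transcription factor of proximal tubule identity, fell by 1.47 and Esrra, a receptor that drives mitochondrial genes, by 1.43. Pparg, the fat cell receptor, rose by 2.42, and by 1.66 without sick mouse 4, the mouse with the highest adipose markers. Prkaa1, a catalytic subunit of AMP-activated kinase, was the other to rise, by 0.40, a call that was lost without sick mouse 1 (0.34, adjusted p = 0.0596). Prkaa1 and Ppara are named after their values were seen. Ppara, the receptor that drives many of the 37 genes, did not pass: it lay between 8.84 and 80.1 CPM in wild-type and between 13.6 and 47.6 CPM in sick mice, with a log2 change of -0.84 ± 0.52 (SE, edgeR adjusted p = 0.193). Without wild-type mouse 2, its lowest wild-type value, the change was -1.21 (adjusted p = 0.00832). Of 13 other known PPAR-alpha targets 4 rose and 3 fell (6 and 2 with library totals alone), beside 25.9% and 25% of all genes. Cyp4a14, a fatty acid omega-hydroxylase, rose by 4.94 ± 0.70 (SE, edgeR adjusted p = 0.000101) from between 4.04 and 44.2 CPM to at least 352 CPM in each sick mouse, by 4.30 without sick mouse 3 and 5.80 without wild-type mouse 3. Cyp4a12a, a related male-type hydroxylase, fell by 4.26, and by 5.18 without sick mouse 4. In healthy knock-in kidneys no gene of these 11 lists was called against wild-type.

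**Figure D4:**
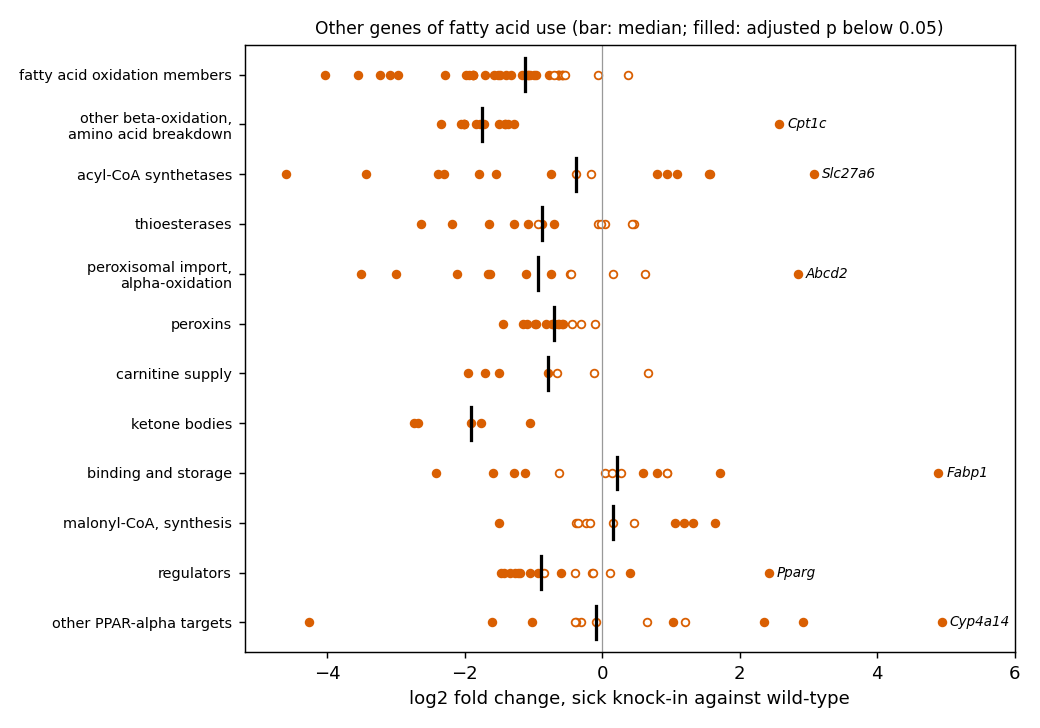
Log2 fold change from wild-type to sick knock-in for the 37 genes and for 11 lists of related genes; points are genes, filled where the adjusted p was below 0.05, bars are medians, and the highest gene above 2 is named. The medians of the 37 and of most lists lie below 0, while Cpt1c, Abcd2, Fabp1, Pparg and Cyp4a14 stand far to the right; Slc27a6 stayed under 1 CPM on average in every group.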

How the data were processed

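Gene counts per library, deposited by the authors as one table, were used as they stand; they are raw counts, not normalised. The submitters' processing notes name Trim Galore 0.3.7, TopHat2 2.0.11, Cufflinks, DESeq2 1.12.4 and the mouse build GRCm38. The counting program, the annotation and the use of strand were not stated in any label or header used. Trueseq libraries were made from DNase-treated total RNA isolated with the Ambion miRvana kit, per the labels' protocols.

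All 12 libraries entered one fit with a mean per group (edgeR 4.0.16 in R 4.3.3, filterByExpr, TMM, quasi-likelihood test, Benjamini-Hochberg over the 15589 genes tested, threshold 0.05). The 3 comparisons between groups of 4 mice came from that fit, and error is the standard error of a log2 fold change or the SD over mice. Library totals ran from 10605546 to 22633684 counts. Alternatives were DESeq2 1.42.0, limma-voom with quality weights (limma 3.58.1), other scalings and filters, the 8 libraries of a comparison alone, a replicate-number block and leaving out each mouse. P-values below 1e-16 were set to that value. The code was tested on simulated data.

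Values per mouse are given for Cpt1a, for the 2 most changed called genes of each step and for near-identical genes, and some others were added. From each pathway list at most 3 called genes with the largest change and at least 1 CPM are named. Acsl4, Prkaa1 and Ppara are named in the text beyond this rule. The 37 genes and the lists were chosen with earlier results of these data known, so none is independent evidence. Sequences are from RefSeq (GRCm38.p6) and the GRCm38 reference; no upstream window was matched for Acat1, Acaa2, Hsd17b4, Crat and Decr1. Some genes of the pathway lists are not reported here.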

Additional observations from a re-analysis of the deposited data

Results flagged for a closer look

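Within the wild-type group, mouse 2 stood far from the other 3 in 7 genes, each time as the highest. Of 111 groups of 4 examined (37 genes in 3 groups) these were the 7 in which 1 mouse passed Dixon's limit for a group of this size, and chance alone gives about 1 in 20 groups. Acadm was at 2718 CPM in mouse 2 against 1667 to 1773 CPM in the others. Acat1 was at 1409.6 CPM against 1078 to 1117 CPM, and Acadvl at 557 CPM against 326 to 343 CPM. Etfb was at 694 CPM against 280.0 to 322 CPM, and Echs1 at 316 CPM against 253 to 259 CPM. Eci2 was at 189.5 CPM against 107 to 119 CPM, and Hsd17b10 at 142 CPM against 79.5 to 87.8 CPM. Without this mouse the calls of Eci2 and Hsd17b10 between sick and wild-type were lost and the other 5 remained.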

How the results depend on the processing

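The number of the 37 genes called lower from wild-type to sick was 32 with DESeq2 size factors, without a filter and with a stricter filter, 29 with upper-quartile scaling, 29 with the 8 libraries alone, 33 with DESeq2 and 35 with limma-voom; for sick against healthy knock-in the same settings gave 29, 27, 29, 30 and 32. Library totals alone gave 23 lower and 1 higher, and 16 lower and 2 higher, with 13 mitochondrial and 6 peroxisomal genes lower from wild-type to sick. Under that scaling Cpt1a was at 0.000367 (adjusted p = 0.999) for sick against wild-type, and for sick against healthy knock-in Hadha was at 0.13, Decr2 at 0.026 and Hsd17b4 at 0.0861; the cause was not tested. Leaving out each mouse in turn gave 29 to 34 and 26 to 31 genes lower, 16 to 19 mitochondrial and 9 to 10 peroxisomal, and 0 higher in both. Between healthy knock-in and wild-type every such fit called 0. For sick against healthy knock-in the Hadha call was lost without any 1 healthy mouse or sick mouse 1, 2 or 4, and the Etfb call without healthy mouse 4 or sick mouse 1, 2 or 4. What same-numbered mice share beyond the number was not known here. Correlations of their deviations ran from -0.26 to 0.24, and differently numbered mice were not compared. With the replicate number as a block, 31 and 29 genes were lower, 17 mitochondrial and 9 peroxisomal, and the Cpt1a call was lost in both. All 37 genes passed the filter on low counts in the fit reported, and 4 mice a group limited the precision.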
